A study of Arabidopsis thaliana with 4 samples.

Results

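LCR68 (AT2G02130, also known as PDF2.3) and LCR69 (AT2G02100, also known as PDF2.2) are 2 genes of the plant defensin family of Arabidopsis thaliana. They were 2 of 13356 genes with a probe set of their own among the 22810 probe sets of the array, and each was read by 1 probe set, taken from the given annotation. A gene is called measured below only if that annotation gives it a probe set of its own. Other genes can still be on the array, among the 8730 probe sets left unnamed or the 503 with several genes. Both genes were chosen by their difference in signal between the genotypes on these arrays, so that difference is described below without a test.

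The study measured RNA from above-ground tissue on Affymetrix GeneChip arrays, with 2 arrays for wild-type plants and 2 for plants of the lwd1 lwd2 double mutant. The mutated genes encode a pair of WD-repeat proteins that work in the circadian clock. All plants were 31 days old and came from days with 12 h light and 12 h darkness, and tissue was taken between 5 and 9 h into the light period. The design text describes the arrays of a genotype as biological replicates, and the labels do not say how many plants were pooled for each. The accession background and the mutant alleles are not given in the sources used here. LWD1 and LWD2 are not named in the annotation used, so the genotype labels were not checked against the targeted genes. The comparison asks which transcripts differ when both clock genes are mutated, in a study of photoperiod regulation.

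Defensins are small secreted proteins held together by disulfide bridges between conserved cysteines. Many of them inhibit the growth of fungi, and they are counted among the preformed and inducible defences of plants. In Arabidopsis, PDF1.2 is the best known member and a standard marker of the jasmonate and ethylene response, whereas PDF2 genes form a separate class. LCR stands for low-molecular-weight cysteine-rich, the name given to a larger family that includes the defensins.

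Values are the deposited signal intensities, which are linear and had been scaled to a common mean on each array. The median signal was 162.4 and 161.7 on wild-type arrays 1 and 2 against 180.9 and 176.1 on lwd1 lwd2 arrays 1 and 2, so it was higher in the mutant. Fold changes and differences were taken as mutant minus wild type on log2(intensity + 16), a scale that understates changes of dim genes. The replicate arrays correlated across tested probe sets at r = 0.972 in either genotype, and arrays of different genotype at 0.932 to 0.947. Because the arrays were scaled to the same mean, a change in total mRNA cannot be seen. In whole shoots, a change in the share of cells that express a gene and a change in RNA per cell cannot be told apart. All arrays came from the same harvest window, so a shift in the daily timing of a transcript and a change in its level cannot be told apart either. The harvest time of each array within that window is not given.

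LCR69 showed the larger difference of the pair. Its signal was 3356 and 2240 on wild-type arrays 1 and 2, and 9656 and 9137 on lwd1 lwd2 arrays 1 and 2. Both mutant arrays stood above both wild-type arrays, with no overlap. Means were 2798 ± 789 for wild type against 9396 ± 368 for lwd1 lwd2 (SD, n = 2). This was a log2 difference of 1.77, or 3.41-fold. The smallest ratio between any mutant and any wild-type array was 2.72 and the largest 4.31.

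LCR68 was also higher in the mutant, by a smaller factor. Its signal was 3811 and 2499 on wild-type arrays 1 and 2, and 6358 and 7544 on lwd1 lwd2 arrays 1 and 2. Again neither mutant array overlapped the wild-type arrays. Means were 3155 ± 928 for wild type against 6951 ± 839 for lwd1 lwd2 (SD, n = 2). The log2 difference was 1.16, or 2.24-fold, and the ratios between single arrays ran from 1.67 to 3.02.

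**Figure D1:**
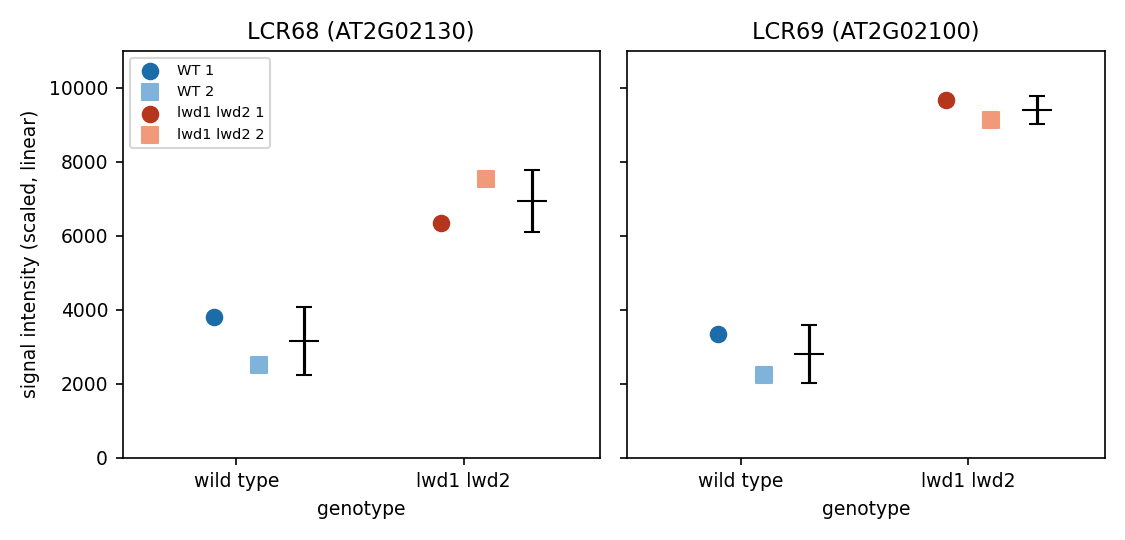
Signal intensity of LCR68 and LCR69 (vertical axis, linear scale from 0) by genotype (horizontal axis); points are single arrays, circles replicate 1 and squares replicate 2, and the bars give the mean ± SD of 2 arrays. The mutant arrays lie above the wild-type arrays for both genes, and wild-type replicate 2 is the lowest array in each panel.

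The wild-type arrays differed from each other in the same way for both genes. Wild-type replicate 1 exceeded replicate 2 by 1.52-fold for LCR68 and by 1.498-fold for LCR69. In the mutant the arrays lay closer together, at 1.19-fold for LCR68, where replicate 2 was higher, and 1.06-fold for LCR69, where replicate 1 was higher. On the log2 scale the wild-type SD was 0.43 for LCR68 and 0.41 for LCR69, and the mutant SD was 0.17 and 0.06 (n = 2). Without wild-type replicate 2 the difference was 1.48 for LCR69 and 0.86 for LCR68, and without wild-type replicate 1 it was 2.06 and 1.46.

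The differences were of unequal size. The log2 ratio of LCR69 to LCR68 within an array was −0.18 and −0.16 on the wild-type arrays against 0.60 and 0.28 on the mutant arrays. The wild-type arrays were almost equal and lay below both mutant arrays, while the mutant arrays differed from each other by more. The mean ratio was higher in the mutant by 0.61 on the log2 scale, or 1.52-fold. A level of one probe set cannot be set against that of another, so only the change of this ratio carries meaning. With 2 arrays against 2, an exact two-sided permutation test cannot go below p = 0.333. A probe set can read close relatives of its gene, and the share of signal that LCR68 and LCR69 could lend each other was not tested.

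Both differences can be read against the rest of the array. Of 13647 tested probe sets, 28.9% were higher in the mutant with no overlap between the groups, and 2.45% were also at least 2-fold higher. LCR69 and LCR68 were chosen for this difference, so their place among these is a description. LCR69 had the 72nd largest positive difference and LCR68 the 240th, of 13647. Among the 665 probe sets whose mean was at least that of LCR68, the dimmer of the pair, 0.902% were at least 2-fold higher with no overlap. LCR69 had the largest positive difference of these 665 and LCR68 the fifth largest. The cut, a mean log2 signal of 12.18, lies above the wild-type means of LCR68 (11.60) and LCR69 (11.43). Both therefore enter this set only through their mutant arrays, and their rank in it is no evidence for the difference. This order was the same with the other offsets and scalings. The filters, the variance settings and the replicate block cannot change it, and it was not computed with an array left out.

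**Figure D2:**
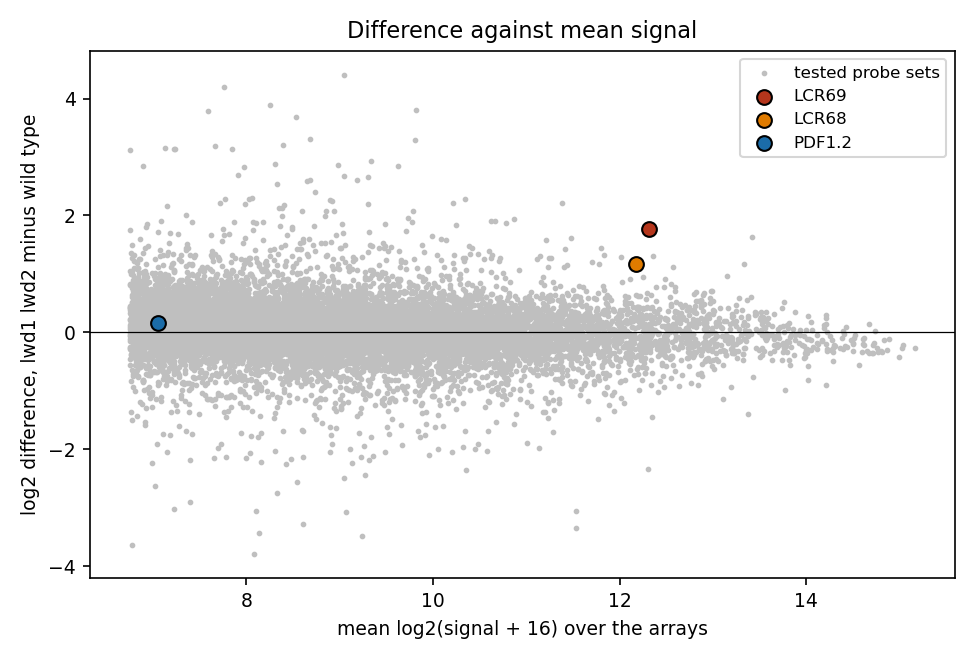
Difference between lwd1 lwd2 and wild type (vertical axis, log2) against the mean log2(signal + 16) over all arrays (horizontal axis) for the 13647 tested probe sets (grey), with LCR69, LCR68 and PDF1.2 marked. LCR69 (1.77) and LCR68 (1.16) stand at the upper edge of the bright probe sets, and PDF1.2 (0.16) lies among the bulk of dim ones.

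No call was made among the measured relatives of the pair, of which only 1 was bright enough for the main test. Beside the members, 11 genes of the family were measured, from a list that covered 89 gene loci. Of these, 10 were too dim for the filter, which removed the dimmest 40% of probe sets by their mean over all arrays, a cutoff near a signal of 91.5. The tested one, PDF1.2, did not pass limma's moderated test, which called 5.57% of all tested probe sets at an adjusted p of 0.05 (2.73% higher and 2.84% lower in the mutant). Its unadjusted p did not reach 0.05 either. With no filter, limma called 1.13% of 22746 probe sets and 0 of these 11 genes, and 0 of them had an unadjusted p under 0.05. The lowest adjusted p among them was 0.562. Their median log2 difference was 0.06, with 7 positive and 4 negative, and the median over all unfiltered probe sets was also 0.06. Of all unfiltered probe sets, 56.8% had a positive difference.

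PDF1.2 (AT5G44420), the jasmonate and ethylene marker, varied more between replicates than between genotypes. Its signal was 229 and 48.3 on the wild-type arrays against 181 and 84.4 on the mutant arrays, arrays 1 and 2 in that order. The groups overlapped, and the log2 difference was 0.16 ± 0.54 (SE), with an adjusted p of 0.901 (limma). Leaving out wild-type replicate 1 gave 1.13 and leaving out wild-type replicate 2 gave −0.80, neither past the threshold.

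The same split between replicates ran through several relatives. PDF1.2b (AT2G26020) stood at 113 and 37.5 on the wild-type arrays against 115 and 6.64 on the mutant arrays. Whether the probe sets of PDF1.2 and PDF1.2b also read each other's RNA was not tested. LCR66 (AT1G61070, also known as PDF2.4) stood at 86.8 and 24.5 on the wild-type arrays against 143 and 60.2 on the mutant arrays. PDF1.4 (AT1G19610) stood at 77.6 and 43.8 on the wild-type arrays against 124 and 53.5 on the mutant arrays. For these, PDF1.2 and LCR72, replicate 1 was above replicate 2 in both genotypes, which makes 5 of the 11 genes, beside 23.3% of all probe sets. The summed signal of the 11 genes was 562 and 245 on the wild-type arrays against 648 and 281 on the mutant arrays. Most of this sum came from PDF1.2, PDF1.2b, LCR66 and PDF1.4 on each array. Its higher value on replicate 1 therefore repeats theirs and says nothing about the other relatives. LCR69 kept that order in both genotypes as well, and LCR68 kept it in wild type but not in the mutant. What the replicate numbers stand for is not stated in the labels.

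The other 5 measured genes outside the chromosomal cluster stayed dim throughout. PDF2.5 (AT5G63660), LCR24, LCR59, LCR67 (AT1G75830, also known as PDF1.1) and LCR80 ran from 1.37 to 21.0 over all arrays. LCR59 (AT4G30070) was the only one of the 11 relatives whose groups did not overlap, at 1.65 and 4.26 on the wild-type arrays against 11.0 and 9.05 on the mutant arrays. Without the filter, 45.2% of all probe sets had no overlap in either direction, and 26.5% were higher in the mutant with no overlap. No bound was set on these low values, since calls of presence or absence were not used here.

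**Figure D3:**
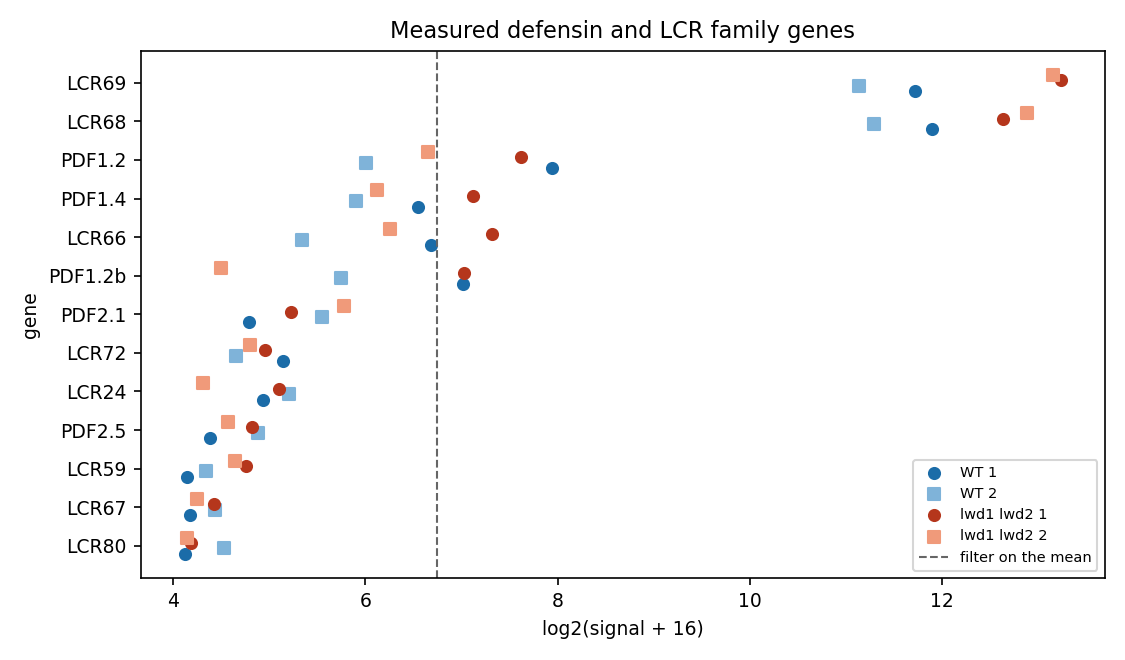
log2(signal + 16) (horizontal axis) on each array for the 13 measured defensin and LCR genes (vertical axis, ordered by mean); circles are replicate 1 and squares replicate 2, blue wild type and red lwd1 lwd2, and the dashed line is the filter on the mean. LCR69 and LCR68 separate by genotype, while PDF1.2, PDF1.4, LCR66 and PDF1.2b separate by replicate number.

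LCR69 and LCR68 lie close together on chromosome 2, in a cluster of defensin genes. In the TAIR10.1 gene table, 3 genes lie between them, PDF2.1 (AT2G02120, also known as LCR70) among them. LCR72 (AT2G02140, also known as PDF2.6) follows on the far side of LCR68. These cluster relatives were dim on each array. PDF2.1 stood at 11.5 and 30.9 on the wild-type arrays against 21.4 and 39.0 on the mutant arrays, with overlapping groups. LCR72 stood at 19.2 and 9.06 on the wild-type arrays against 15.1 and 11.9 on the mutant arrays, also overlapping. Both were below the filter, with log2 differences of 0.34 and −0.01, and neither passed with no filter (adjusted p = 0.777 and 0.992, limma).

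Genes further out showed small differences. Of the 23 genes within 10 places of LCR69 or LCR68, 7 were measured and 4 tested, and 0 of the 4 passed limma's test, beside 5.57% of all tested probe sets. None of these 4 had an unadjusted p under 0.05, and 1 of the 7 had with no filter. ETL1 (AT2G02090), a chromatin remodelling protein of the SNF2 family and the gene next to LCR69, stood at 543 and 542 on the wild-type arrays against 640 and 556 on the mutant arrays. AT2G02160, which encodes a CCCH zinc-finger protein, stood at 416 and 442 on the wild-type arrays against 582 and 557 on the mutant arrays. Its log2 difference of 0.40 ± 0.19 (SE) was the largest positive one of the 7 (adjusted p = 0.278, limma). AT2G02050, a subunit of mitochondrial complex I, had a difference of 0.25 ± 0.17, and AT2G02170, a remorin, one of 0.08 ± 0.22. AT2G02061 was below the filter at 9.74 to 31.4, with a difference of −0.47. The groups did not overlap for 4 neighbours that were higher and 1 that was lower in the mutant, beside 45.2% of all unfiltered probe sets in either direction.

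**Figure D4:**
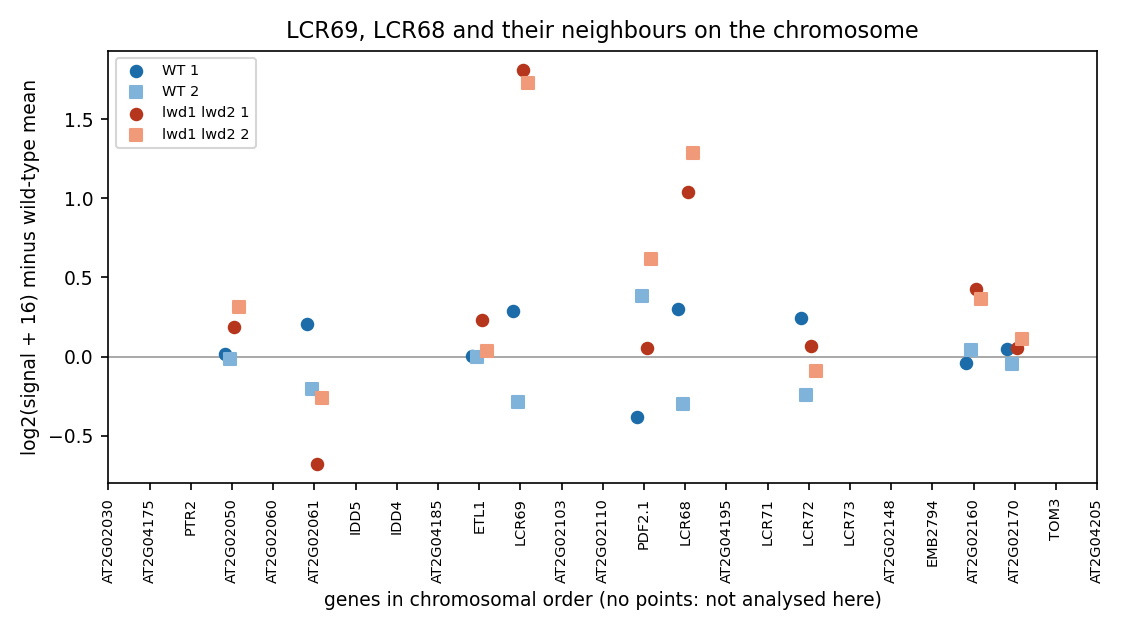
log2(signal + 16) minus the wild-type mean (vertical axis) on each array for LCR69, LCR68 and the genes within 10 places of them, in chromosomal order (horizontal axis); genes with no points were not analysed here. The mutant arrays reach 1.73 and 1.81 for LCR69 and 1.04 and 1.28 for LCR68, and lie between −0.68 and 0.61 for the 7 measured neighbours.

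From the lists of other defence genes, few members had a named probe set of their own, and the others may be on the array unnamed. Thionins are another family of small cysteine-rich antimicrobial proteins. THI2.1 (AT1G72260), a thionin induced by jasmonate, stood at 446 and 72.6 on the wild-type arrays against 665 and 462 on the mutant arrays. Its groups did not overlap, but wild-type replicate 1 lay close to mutant replicate 2. The log2 difference was 1.496 ± 0.56 (SE) with an adjusted p of 0.166 (limma). It passed without wild-type replicate 1 (2.69, adjusted p = 7.6e-06) and without lwd1 lwd2 replicate 2 (1.75, adjusted p = 0.0356), while it was 0.31 without wild-type replicate 2. In such fits the genotype with 1 array is assumed to vary like the other. The p then rests on the spread of the other genotype and on limma's variance trend over all tested probe sets. Adjusted p over all alternatives ran from 7.6e-06 to 0.648. THI2.2 (AT5G36910) was below the filter, at 97.5 and 98.0 on the wild-type arrays against 63.0 and 83.8 on the mutant arrays.

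Of 49 jasmonate and ethylene loci listed, 2 had a named probe set of their own, and both were tested. ORA47 (AT1G74930), an ERF-type transcription factor induced by jasmonate, rose from 128 and 101 to 281 and 250 (adjusted p = 0.0249, limma), and EIN3, the transcription factor of ethylene signalling, did not pass (log2 difference −0.20 ± 0.18). The call of ORA47 was lost without wild-type replicate 2, without lwd1 lwd2 replicate 1 and with no filter (adjusted p = 0.0964, 0.0858 and 0.127), within a range of 0.0149 to 0.127. Of 20 salicylic acid loci, SAG101 and WRKY53 were measured. SAG101, a partner of EDS1 in immune signalling, had a difference of 0.05 ± 0.30 and did not pass. WRKY53, a transcription factor of senescence and defence, was below the filter. It stood at 31.1 and 59.4 on the wild-type arrays against 207 and 90.9 on the mutant arrays, with no overlap. Of all unfiltered probe sets, 26.5% were higher in the mutant with no overlap. With no filter WRKY53 did not pass (unadjusted p = 0.0214, adjusted p = 0.255, limma). Together the 3 defence lists had 4 tested genes other than defensins, of which 1 passed, beside 5.57% of all tested probe sets.

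Of the markers of other tissues, a few had a named probe set of their own. The green-shoot markers RCA, LHCB4.1 and LHCB4.2 were bright on every array, with a summed signal of 77618 and 78305 on the wild-type arrays against 57205 and 72005 on the mutant arrays. None of these 3 passed the test, with log2 differences from −0.34 to −0.20. RCA and LHCB4.2 were lower in the mutant with no overlap, while the groups overlapped for LHCB4.1. Of all unfiltered probe sets, 45.2% had no overlap in either direction. Of 19 flower, anther and pollen loci, 5 were measured and 2 tested, with a summed signal of 346 and 160 on the wild-type arrays against 516 and 343 on the mutant arrays. These sums overlapped between the genotypes. All 5 log2 differences were positive, beside 56.8% of all unfiltered probe sets, and the groups overlapped for 4 of the 5 genes. Of the 2 tested, 0 passed, beside 5.57% of all tested probe sets. AGL65, a MADS-box transcription factor of pollen, read 81.1 and 99.9 on the wild-type arrays against 126 and 205 on the mutant arrays, with no overlap (log2 difference 0.74, unadjusted p = 0.0308, adjusted p = 0.193, limma). AT5G07230, the anther gene A9, had overlapping groups and a difference of 0.55 (adjusted p = 0.726), which was 1.78 without lwd1 lwd2 replicate 2 (adjusted p = 0.0269, a fit with 1 mutant array). The seed marker OLEO3 ran from 68.3 to 94.3, and the root hair genes EXPA7 and EXPA18 from 4.095 to 82.9, all below the filter. SAG29, the only listed senescence marker with a named probe set of its own, fell from 230 and 320 to 62.7 and 46.4 (adjusted p = 0.0022, limma). The log2 difference between 3′ and 5′ control probe sets overlapped between the genotypes for 5 of 6 control pairs. The remaining GAPDH pair read −0.23 and −0.19 on the wild-type arrays against −0.05 and 0.07 on the mutant arrays. An actin pair read 3.94 and 3.19 on the wild-type arrays against 4.24 and 2.85 on the mutant arrays, a strong excess of 3′ signal. Each actin pair was higher on replicate 1 in both genotypes, while no GAPDH or ubiquitin pair kept that order. The pairs share actin, GAPDH and ubiquitin between designs, so they are not independent. The part of any of these in the differences of LCR68 and LCR69 was not tested.

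The genes whose pattern over the 4 arrays came closest to those of the members were found by the root mean square distance between log2 profiles, each centred on its own mean. The search covered 7368 other probe sets with 1 gene. Because the members' pattern holds the genotype difference, the genes found share that difference by construction, and no test applies to them. LCR68 came closest to SBT1.3, a subtilisin-like protease gene, at a distance of 0.06. SBT1.3 stood at 1001 and 647 on the wild-type arrays against 1518 and 1943 on the mutant arrays, so it matched LCR68 in its lower wild-type replicate 2 and higher mutant replicate 2. Next came ATLP-1, a thaumatin-like protein of the group that includes pathogenesis-related proteins, at 430 and 261 on the wild-type arrays against 767 and 825 on the mutant arrays. AT1G80280, AT5G39410 and AT3G58520 followed, at distances of 0.08 to 0.10.

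LCR69 came closest to AT3G23170, at a distance of 0.11, with 221 and 113 on the wild-type arrays against 611 and 585 on the mutant arrays. The next were AT2G21130, a cyclophilin, and 3xHMG-box2, a protein that binds chromosomes in dividing cells, at 0.16 and 0.18. AT1G26665, a subunit of the Mediator complex, and AT2G36885 followed at 0.19 and 0.20. LCR68 and LCR69 were at a distance of 0.33 from each other. LCR68 was the 35th nearest to LCR69, while LCR69 was only the 276th nearest to LCR68, so neither was the other's closest match on these arrays. The profiles were not scaled, so this distance includes the unequal size of the genotype differences of LCR68 and LCR69.

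The differences of both members were recomputed under 12 other settings. The filters, the robust prior and the replicate block cannot move a mean difference in this balanced design, so agreement under them carries no information. LCR69 ran from 1.48 to 2.06 and LCR68 from 0.86 to 1.46 on the log2 scale, and both ends of either range came from leaving out a wild-type array. Their signals were far above the offset of 16, so an offset of 1 or 64 moved them little, to 1.78 or 1.75 for LCR69 and 1.17 or 1.15 for LCR68. Centring each array on its median gave 1.64 and 1.03, and quantile normalization 1.83 and 1.19. LCR69 stayed above LCR68 in each setting.

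**Figure D5:**
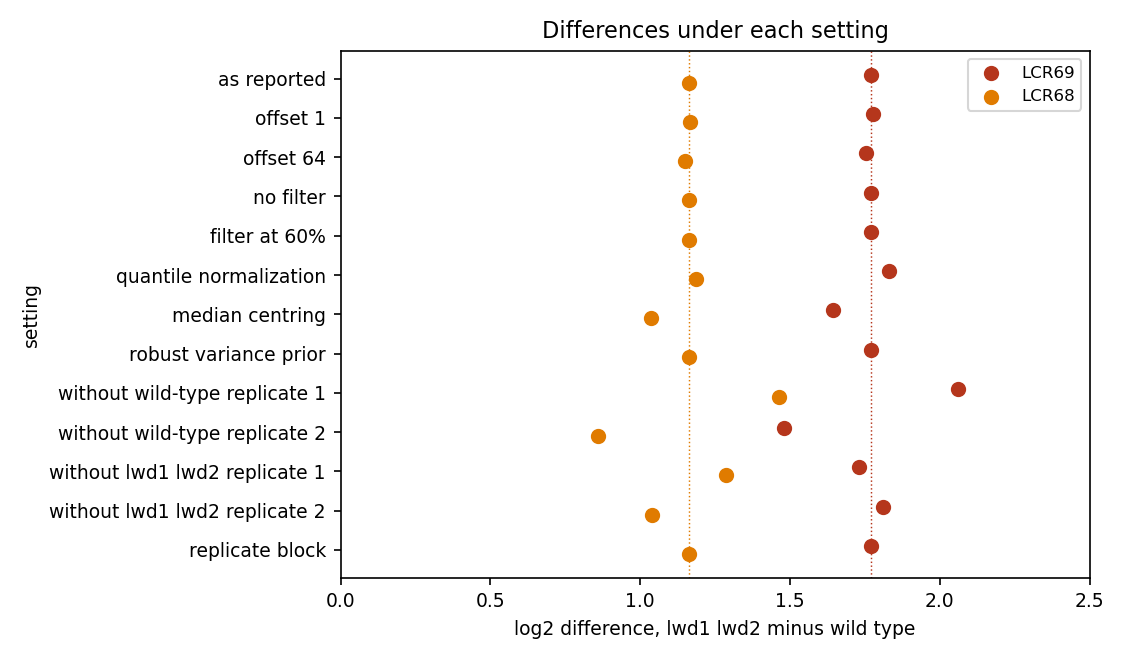
Log2 difference between lwd1 lwd2 and wild type (horizontal axis) for LCR69 and LCR68 under each setting (vertical axis); dotted lines mark the values as reported, 1.77 and 1.16. The widest moves come from leaving out wild-type replicate 1 or 2, and LCR69 lies to the right of LCR68 in each row.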

How the data were processed

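The deposited table held 1 linear signal intensity for each probe set and array. Which software made it is not stated in the labels. The mean intensity with 2% trimmed at each end was 500.05 on each array, so the deposited values had been scaled. Per the labels' protocols, 10 µg of total RNA was made into cDNA and biotin-labelled.

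Values were analysed as log2(intensity + 16). The 64 control probe sets and the 40% with the lowest mean were left out. On the remaining 13647, limma 3.58.1 (R 4.3.3) was run (lmFit, eBayes with an intensity trend, genotype only, 2 residual degrees of freedom, two-sided, Benjamini-Hochberg adjustment, threshold 0.05). SE is limma's moderated one. Figures were drawn with matplotlib 3.10.9. The number of arrays limits the precision, and p-values measure only the spread between these samples.

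Genes were named from the given probe annotation, with symbols updated from the TAIR10.1 gene table: 13436 probe sets had 1 gene found in that table, 77 had 1 gene not found, 503 had several genes and 8730 were not listed and stay unnamed here. No sequence was used here.

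On simulated data with 13647 probe sets for this comparison, 39% of those changed by 1 and 99% of those changed by 2 on the log2 scale were recovered, with 4 false calls. The simulated spreads were drawn from limma's own fitted prior, with independent normal errors and equal spread in both genotypes. Such data obey the model, so the false calls do not give the error rate of the calls on the real arrays.

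The members, gene lists and tests were chosen with earlier results of these data known. Named genes were the members, each measured relative and neighbour, list members past the threshold or the 2 largest by size, and the 5 nearest profiles for each member. EIN3 and LHCB4.1 lie outside this rule and were named after their values were seen. Alternatives were other offsets, filters, normalizations, a robust prior, each array left out and a replicate block.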

Additional observations from a re-analysis of the deposited data

How the results depend on the processing

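The differences of LCR68 and LCR69 ran from 0.86 to 1.46 and from 1.48 to 2.06 when 1 array was left out. With 2 arrays a genotype these moves cannot exceed the spread between replicates, and with no overlap between the groups they cannot turn the direction, so they say nothing of stability. Among the 11 relatives and the 7 neighbours, 0 were called in any alternative. In the main fit 10 of the relatives and 3 of the neighbours were below the filter, and a gene below it cannot be called. With the filter at 60%, PDF1.2 and AT2G02170 were left out too. Only the fit with no filter tested all of these genes. The median difference of the relatives ran from −0.09 to 0.23, with −0.04 after quantile normalization and −0.06 after centring, all within its spread. With no filter, 258 probe sets were called over the array (114 higher) in place of 760 (372 higher). With 1 array left out, the calls numbered 561 to 1095, of which 290 to 607 were higher. The most came without wild-type replicate 1. The cause was not tested. After centring each array on its median, which moved all differences by about −0.13, 257 of 829 calls were higher. In the 3 defence lists, 1 gene was called; it was 0 with no filter, 0 with the filter at 60%, which left ORA47 out, and 0 to 2 with 1 array left out. The replicate numbers are shared between genotypes, but the deviations of same-numbered arrays correlated at 0.09, which does not pair them. A fit with the replicate number as a block called 676 probe sets (324 higher), with 0 relatives, 0 neighbours and 1 gene of the defence lists. In this balanced design such a fit cannot move the differences, which stayed at 1.16 and 1.77. The planned search of promoters for motifs was not run because no promoter sequence was used here.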
